A study of Mus musculus with 12 samples.

Results

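Glutamate, GABA and glycine receptor subunits were followed through the neonatal mouse cochlea on Affymetrix Mouse Gene 1.0 ST arrays. A gene was taken as a subunit gene by its symbol alone, from the Gria, Grik, Grin, Grid, Grm, Gabr, Gabbr, Glra and Glrb series. 44 of the 19938 genes that carried 1 symbol on these arrays were chosen in this way, from 46 array entries. Of these, 36 exceeded a log2 signal of 6 as the mean of 1 or more groups, the level at which the study's methods took a gene as expressed, and were tested.

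The 12 arrays came from wild-type C57BL/6 mice at postnatal day 0 (P0) and postnatal day 8 (P8), with no treatment. At each age the cochleae were opened by removing the otic capsule, and the lateral wall, the spiral limbus and the organ of Corti were kept together and cut into a base, a middle and an apex. Many temporal bones were pooled for each RNA, and the dissection was done in a first and a second set, so that there were 6 groups by age and region with 2 arrays in each. The 3 regions of a set were pieces of the same pooled cochleae, and each age had 2 such pools. The study's methods do not name the spiral ganglion among the tissues kept, so how much of it was included is not known. Hair cells and any neurons that were kept are part of a mixture with lateral wall and connective tissue. Fewer cells of a type and less RNA per cell therefore cannot be told apart.

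Inner hair cells release glutamate onto AMPA receptors of the spiral ganglion neurons, and this is the synapse that carries sound to the brain. AMPA, kainate and NMDA receptors are cation channels, whereas the metabotropic glutamate receptors and the GABA-B receptor act through G proteins. GABA-A and glycine receptors are chloride channels of the Cys-loop family. The glycine receptor beta subunit Glrb binds the scaffold protein gephyrin and joins alpha subunits, which carry the main part of the glycine binding site. Efferent fibres that reach the cochlea before hearing begins use GABA beside acetylcholine.

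Glrb, the member with the greatest difference between ages, and Gria2, the AMPA subunit that sets calcium permeability, follow each other as neighbouring protein-coding genes on chromosome 3 in the RefSeq annotation of GRCm38.p6. Their array signals went in opposite directions with age, as given below, so sequence from both is shown. The RefSeq promoter table held 33 of the 44 members. The first sequence is the stretch of 250 bases before the Glrb start, chr3:80913661-80913910 on the minus strand of GRCm38.p6, with the GC box core GGGCGG in capitals (here as its reverse complement). The second is a window of 28 bases from the Gria2 promoter, chr3:80802985-80803012 on the minus strand, with AGCACC and GGACAG, 2 bases apart, in capitals together with the bases between them, again as the reverse complement. These letters are the core of the RE1 element that the repressor REST binds in many neuronal genes.
Glrb: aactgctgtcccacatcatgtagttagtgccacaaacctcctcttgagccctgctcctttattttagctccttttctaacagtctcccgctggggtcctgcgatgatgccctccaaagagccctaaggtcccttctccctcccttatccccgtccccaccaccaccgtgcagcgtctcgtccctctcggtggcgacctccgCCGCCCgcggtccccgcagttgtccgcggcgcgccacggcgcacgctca
Gria2: caaagcgCTGTCCGCGGTGCTaaaatcg
Searched on both strands of promoters of 300 bases, this spaced pair was found in 16 of 27025 genes (0.0592%) and, among the 33 members, in Gria2. The short GC box core was found in 38.2% of all promoters and in 19 of the 33 members. A match is a description of the letters in the window, and binding was not measured.

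The first comparison asked which subunit genes differed between P8 and P0, as the mean of base, middle and apex. Glrb was the only member past the test with a fold of at least 2 and rose 3.52-fold. Without a fold threshold, Grin3a, Gria1 and Grm7 also rose, and 15 members fell, led by the GABA-A subunit Gabrb2 and the kainate subunits Grik2, Grik4 and Grik1. As means of each region and of each dissection set, all 19 of these members kept 1 direction. Within single regions of 1 set, Gabra3 in the second-set base (6.49 at P0 and 6.70 at P8 in log2 signal), Gabbr2 in the second-set apex (7.59 and 7.63) and Grin2b in the first-set base (6.03 and 6.11) went the other way. The remaining 17 tested members did not pass. With limma, 1 of 36 members was called higher at a fold of 2 (2.06% of all 16306 genes) and 0 were called lower (1.14% of all genes). An unadjusted p under 0.05 in either direction was found for 22 members. The share of all genes at that cut was not taken, so nothing is read from this count. At an adjusted p under 0.05 and no fold, 4 members were higher (9.52% of all genes) and 15 were lower, which is 41.7% of the members beside 9.19% of all genes. The 15 include Gabra2, Gabra5 and Gria2, which entered the test only through their P0 groups, so the share is a description and nothing is read from it. The median P8 minus P0 difference was -0.20 on the log2 scale over the 36 members and -0.0014 over all tested genes. Without the filter on low signal it was -0.0936 over the 44 members and 0.0097 over all genes. The median over the 36 also holds the 3 members that entered through their P0 groups, so it is a description.

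Base, middle and apex of a pool share its animals, and the differences were therefore tested again with the pool as a random block (within-pool correlation 0.689). Glrb, Gria1 and Grin3a then stayed past an adjusted p of 0.05 on the higher side (3.18% of all genes) and Gabrb2, Grik2, Grik4 and Grik1 on the lower side (2.29% of all genes). Glrb, Gabrb2, Grik1, Grik2 and Grik4 passed this stricter test with any 1 array left out. Gria1 passed it only without the P0 middle array of the second set and Grin3a only without the P0 apex array of the second set, with adjusted p up to 0.104 and 0.108.

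**Figure D1:**
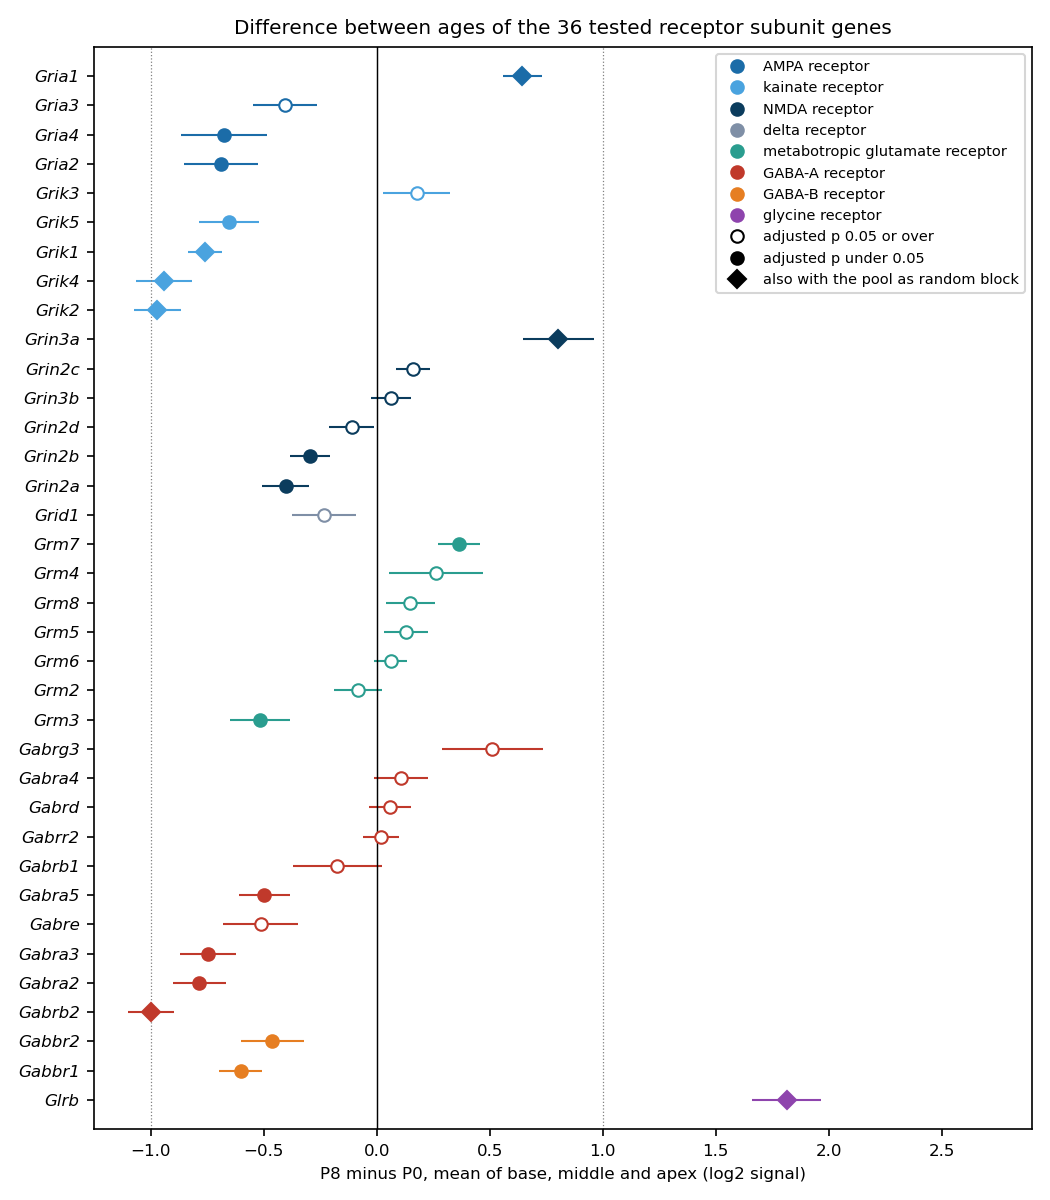
P8 minus P0 difference in log2 signal (mean of the 3 regions, x axis, bars ± SE of the limma fit without a block) for each of the 36 tested subunit genes, grouped by receptor class. Filled symbols have an adjusted p under 0.05, diamonds also with the pool as a random block, and dotted lines mark a fold of 2; Glrb at 1.81 lies alone on the right, and 4 of the 5 kainate subunits lie left of -0.65.

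Among the glycine receptor genes, Glrb carried the signal. The 6 P0 arrays read 8.32 to 9.24 with a median of 8.66 in log2 signal, and the 6 P8 arrays read 10.16 to 10.78 with a median of 10.54. The lowest P8 array stood above the highest P0 array. The difference was 1.81 ± 0.15 (SE) on the log2 scale, with an adjusted p of 9.97e-05 by limma and 3.40e-04 with the pool as a random block. It was of like size in the base (1.78), the middle (1.87) and the apex (1.79), and was 2.19 in the first set and 1.43 in the second. The alpha subunit genes Glra1, Glra2, Glra3 and Glra4 stayed below the level of 6 on every array and were not tested. Glra3 read 3.92 to 4.39 at P0 and 4.49 to 5.28 at P8 in log2 signal, both under that level, so no difference is read. Gphn, which encodes gephyrin, had a P8 minus P0 difference of -0.07 ± 0.14 and did not pass (adjusted p = 0.773).

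The AMPA receptor genes moved apart. Gria1 read 6.05 to 6.57 at P0 (median 6.37) and 6.62 to 7.20 at P8 (median 7.07) in log2 signal, without overlap. It rose by 0.64 ± 0.09, with an adjusted p of 0.00108 by limma. Gria2 read 6.11 to 6.79 at P0 (median 6.56) and 5.40 to 6.19 at P8 (median 5.87). Its ages overlapped by a narrow margin, and it fell by 0.69 ± 0.16 (adjusted p = 0.0187, and 0.175 with the pool as a random block). Gria4 fell by 0.68 ± 0.19 from a P0 median of 8.57 to a P8 median of 7.71 (adjusted p = 0.0387, and 0.138 with the random block). Gria3 had a difference of -0.41 ± 0.14 and did not pass (adjusted p = 0.0804), but did with the dissection set as a block (0.00667). Gria2 passed the filter on low signal only through its P0 groups, since its P8 mean of 5.79 lay under the level of 6.

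Of the 5 kainate receptor genes, all but Grik3 fell at an adjusted p under 0.05 and no fold, beside 9.19% of all genes. With the pool as a random block 3 of the 5 fell, beside 2.29% of all genes. Grik2 read 6.74 to 7.09 at P0 (median 6.88) and 5.58 to 6.07 at P8 (median 6.03) in log2 signal. Grik4 read 7.72 to 8.33 (median 8.07) and then 6.85 to 7.40 (median 7.05), and Grik1 read 7.17 to 7.75 (median 7.57) and then 6.55 to 7.09 (median 6.66). In none of these genes did the ages overlap. The falls were 0.97 ± 0.10 for Grik2, 0.94 ± 0.12 for Grik4 and 0.76 ± 0.08 for Grik1, with adjusted p of 3.89e-04, 0.00108 and 2.77e-04 by limma and 0.00921, 0.00778 and 0.0128 with the pool as a random block. Grik2 is a principal subunit that can form channels alone, whereas Grik4 and Grik5 need a partner from the Grik1 to Grik3 group. Grik5 fell by 0.65 ± 0.13, from 9.05 to 9.29 at P0 to 8.04 to 8.81 at P8 (adjusted p = 0.00939, and 0.0749 with the random block). Grik3 was the exception, with a difference of 0.18 ± 0.15 that did not pass (adjusted p = 0.466).

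**Figure D2:**
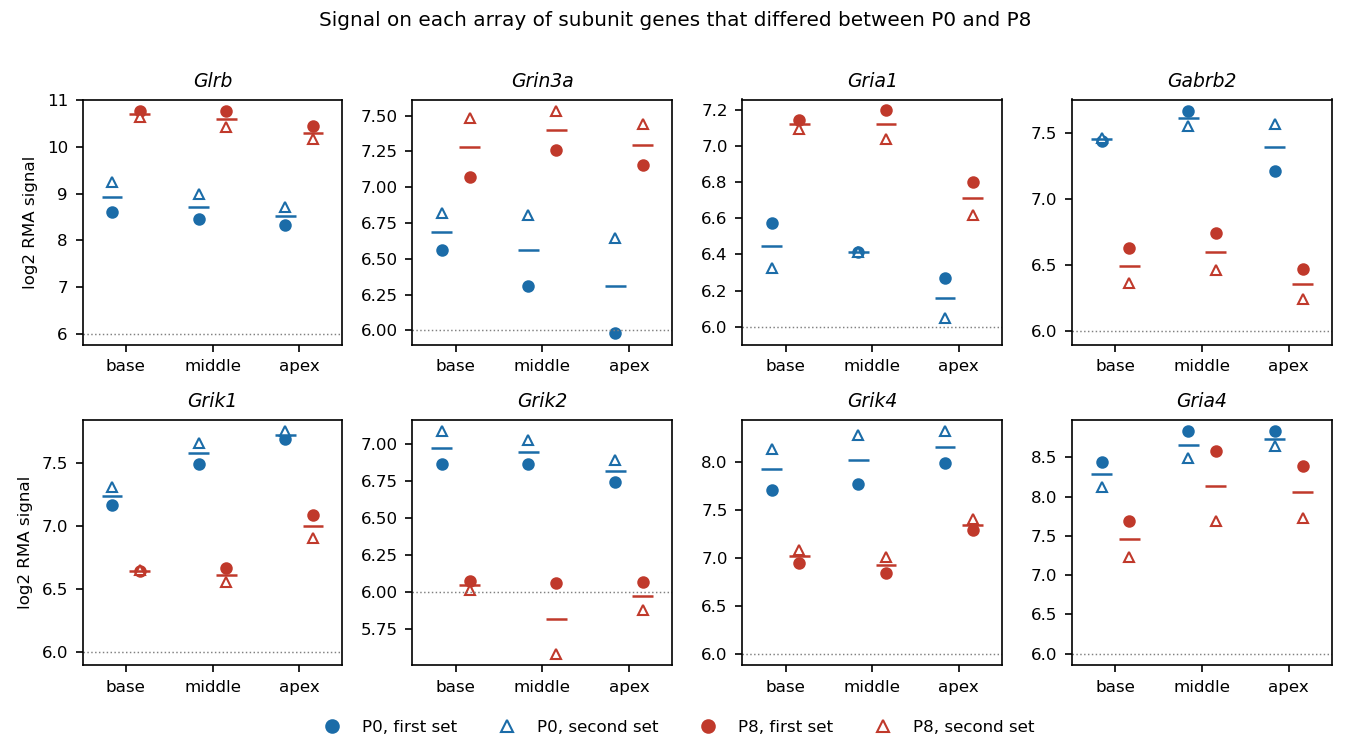
Log2 RMA signal (y axis, own range in each panel) on each of the 12 arrays for 8 subunit genes, by region (x axis), with P0 in blue, P8 in red, circles for the first and triangles for the second dissection set, bars for the mean of 2 arrays and a dotted line at the level of 6. The ages do not overlap in Glrb, Grin3a, Gria1, Gabrb2, Grik1, Grik2 and Grik4, and they do in Gria4.

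In the NMDA receptor class, the glycine-binding subunit Grin3a rose. It read 5.98 to 6.82 at P0 (median 6.60) and 7.07 to 7.54 at P8 (median 7.35) in log2 signal, without overlap. The difference was 0.80 ± 0.16 (adjusted p = 0.00758 by limma, and 0.0467 with the pool as a random block). Grin2a and Grin2b, the glutamate-binding subunits of most central NMDA receptors, fell by 0.40 ± 0.10 and 0.30 ± 0.09 (adjusted p = 0.0263 and 0.0475), and neither passed with the random block (0.304 and 0.477). Grin2c, Grin2d and Grin3b had differences between -0.11 and 0.16 and did not pass. The delta receptor gene Grid1 had a difference of -0.23 ± 0.14 (adjusted p = 0.307).

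Metabotropic glutamate receptor genes differed little between the ages. Grm7, a presynaptic receptor of the group that lowers cyclic AMP, rose by 0.36 ± 0.09 from a P0 median of 7.17 to a P8 median of 7.47 (adjusted p = 0.0279). Grm3, of the other inhibitory group, fell by 0.52 ± 0.13 (adjusted p = 0.0266). Neither passed with the random block (0.324 and 0.287). Grm2, Grm4, Grm5, Grm6 and Grm8 had differences of -0.08 to 0.26 in log2 signal, none past the test.

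In the GABA-A class, 4 of 10 tested genes fell and none rose at an adjusted p under 0.05 and no fold. Over all genes, 9.19% fell and 9.52% rose at that cut. With the pool as a random block, 1 of the 10 fell, namely Gabrb2, beside 2.29% of all genes. Gabrb2 read 7.22 to 7.67 at P0 (median 7.51) and 6.24 to 6.74 at P8 (median 6.47) in log2 signal. The ages stood apart in every region, and the fall of 0.9989 ± 0.10, just short of a fold of 2, had an adjusted p of 2.84e-04 by limma and 0.00921 with the pool as a random block. The other array entries of Gabrb2 differed by -1.49 (means of 6.23 at P0 and 4.73 at P8) and -0.9982 (5.46 and 4.47). Their P8 means lay under the level of 6, as did the P0 mean of the latter, so the sizes of these differences are not read. Gabra2, an alpha subunit, went from 5.92 to 6.35 (median 6.22) down to 5.13 to 5.68 (median 5.43), and Gabra3 from 6.49 to 7.40 (median 6.94) down to 5.76 to 6.70 (median 6.24). Their falls were 0.79 ± 0.12 and 0.75 ± 0.13 (adjusted p = 0.00197 and 0.00372, and 0.118 and 0.0931 with the random block). Gabra5 fell by 0.50 ± 0.11 (adjusted p = 0.0155, and 0.176 with the random block). Gabra2 and Gabra5 were in the limma fit only because their P0 signal exceeded 6, and all of their P8 groups lay under it.

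Gabre, Gabrg3, Gabra4, Gabrb1, Gabrd and Gabrr2 did not pass. Among these the greatest differences were -0.51 ± 0.17 for the epsilon subunit gene Gabre (adjusted p = 0.0648) and 0.51 ± 0.22 for the gamma subunit gene Gabrg3 (adjusted p = 0.156). Both passed with the dissection set as a block (3.84e-04 and 0.00253) and neither with the pool as a random block (0.272 and 0.407). Gabrg3 and Gabra5 are neighbouring protein-coding genes on chromosome 7. Gabra6, Gabrg1, Gabrr1 and Gabrr3 stayed below the level of 6 on all arrays and were not tested. The metabotropic GABA-B receptor is a pair of Gabbr1, which binds GABA, and Gabbr2, which couples to the G protein. Gabbr1 read 9.13 to 9.39 at P0 (median 9.32) and 8.39 to 8.82 at P8 (median 8.74), without overlap, and fell by 0.60 ± 0.10 (adjusted p = 0.00282, and 0.0721 with the random block). Gabbr2 fell by 0.46 ± 0.14 with overlapping ages (adjusted p = 0.0488, and 0.489 with the random block).

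**Figure D3:**
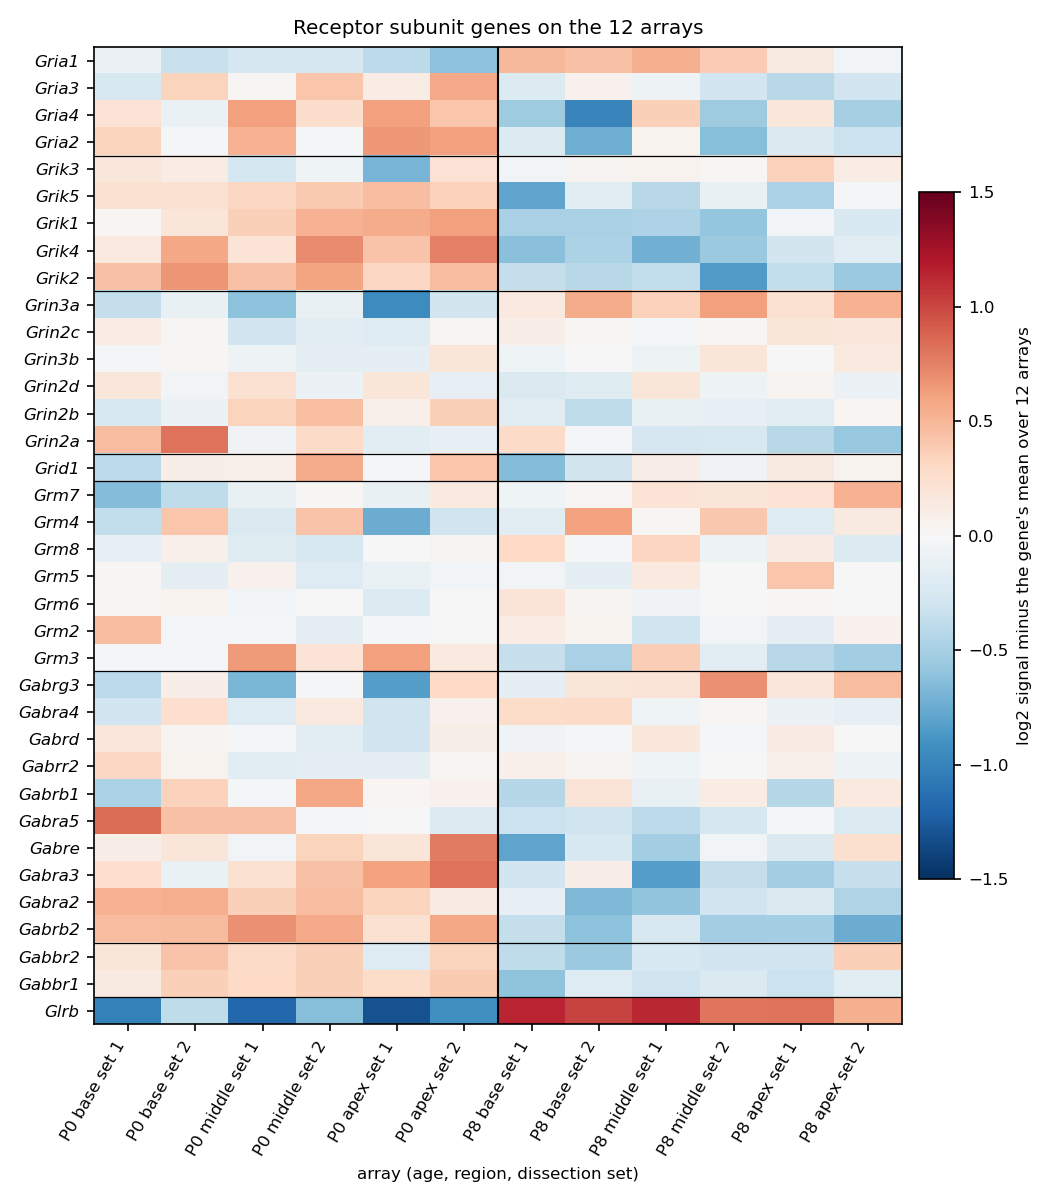
Log2 signal minus each gene's own mean over the 12 arrays (colour scale from -1.5 to 1.5) for the 36 tested subunit genes (rows, by receptor class) on the 12 arrays (columns, P0 left and P8 right of the line). Glrb and Grin3a lie above their mean on every P8 array, and Grik1, Grik2, Grik4, Grik5, Gabra2, Gabrb2 and Gabbr1 on every P0 array.

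Across the tested members, 10 of 36 had no overlap between the 6 P0 and the 6 P8 arrays, beside 15.5% of all tested genes. These were Glrb, Gria1, Grin3a, Grik1, Grik2, Grik4, Grik5, Gabra2, Gabrb2 and Gabbr1. Gabra2 entered the test only through its P0 groups, so the share is a description and nothing is read from it. In the limma fits without a block that each left out 1 array, these 10 genes and Gabra3 and Gabra5 passed in all 12. Gria2 failed in 4 of them, in turn without each P0 array of the first set and without the P8 base array of the second. The calls of the other 6 members rested on more arrays. Gria4 passed in 3 fits, those without a P8 array of the first set. Grm7 passed in 4, without the first-set P8 apex or a P0 array of the second set, and Grin2a in 4, without the P0 or P8 base, the P0 middle or the P8 apex array of the first set. Grm3 passed in 3, without the first-set P8 middle array or the second-set P0 middle or P0 apex array. Gabbr2 passed in 2, without the first-set P0 apex or the second-set P8 apex array, and Grin2b in 1, without the first-set P0 apex array.

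Lists of known partner genes were read in the same fit, in which 9.52% of all genes rose and 9.19% fell at an adjusted p under 0.05. Of 23 tested genes for auxiliary subunits and scaffolds of glutamate receptors, 2 rose and 3 fell at an adjusted p under 0.05, with a median difference of -0.10 in log2 signal. Neto2, an auxiliary subunit of kainate receptors, rose by 1.24 ± 0.30 (adjusted p = 0.0213), and Cacng4, a transmembrane AMPA receptor regulatory protein, rose by 1.03 ± 0.26 (adjusted p = 0.0257), both at a fold of more than 2. Grip1, a scaffold of AMPA receptors, fell by 0.81 ± 0.12 (adjusted p = 0.00173), and the scaffold Dlg2 fell by 0.54 ± 0.11 (adjusted p = 0.00762). With the pool as a random block, 2 of the 23 were higher and 1 lower, with adjusted p of 0.0395 for Neto2, 0.0447 for Cacng4 and 0.0428 for Grip1, and Dlg2 no longer passed (0.177). Of 11 genes for GABA and glycine receptor partners, none rose and 2 fell, namely Kctd16 and Kctd8, auxiliary subunits of the GABA-B receptor, by 0.47 ± 0.10 and 0.34 ± 0.10 (adjusted p = 0.00944 and 0.0484). The median over the 11 genes was -0.11, and neither gene passed with the random block (adjusted p = 0.177 and 0.471). Of 20 genes for transmitter synthesis, uptake and chloride transport, 4 rose and 2 fell, with a median of -0.01. Glul, glutamine synthetase, rose by 0.78 ± 0.23 (adjusted p = 0.0480), and the chloride importer Slc12a2 rose by 0.61 ± 0.09 (adjusted p = 0.00146). Gad1, which makes GABA, fell by 0.54 ± 0.09 (adjusted p = 0.00339). Of these, Slc12a2 passed with the random block (0.0375), the only gene of the 20 to do so, whereas Glul and Gad1 did not (0.1005 and 0.0722). Slc12a2 is also counted in the list of strial and fibrocyte markers below. Slc17a6, a vesicular glutamate transporter, had a difference of -0.83 ± 0.25 that did not pass (adjusted p = 0.0508).

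Markers of cell types moved with age on the same arrays. All 16 neuron markers had lower signal at P8, with a median difference of -0.96, and 12 passed at an adjusted p under 0.05 (5 with the pool as a random block). The summed log2 level of this list, as its mean per array, was 8.32 to 8.83 at P0 and 6.90 to 7.77 at P8. Dcx, of young neurons, and Stmn2 differed most, by -2.44 ± 0.13 and -2.25 ± 0.26. The 12 strial and fibrocyte markers were all higher at P8, with a median of 1.05, and 10 passed (8 with the random block). Of 11 hair cell markers, 6 rose and 1 fell (3 and 0 with the random block). Ocm and Slc26a5 of outer hair cells were highest, at differences of 4.68 ± 0.24 and 3.05 ± 0.12. The markers Myo7a, Myo6, Pou4f3 and Gfi1 had differences of -0.28 to 0.02 and did not pass. Of 7 Schwann and satellite glia markers, 4 rose and 1 fell (1 and 0 with the random block), and of 10 supporting cell markers 2 rose and 4 fell (2 and 2). Of 9 skeletal muscle and 3 red blood cell markers, 2 and 1 rose and none fell, and none passed with the random block. The part of these marker changes in the differences of the subunit genes was not tested.

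**Figure D4:**
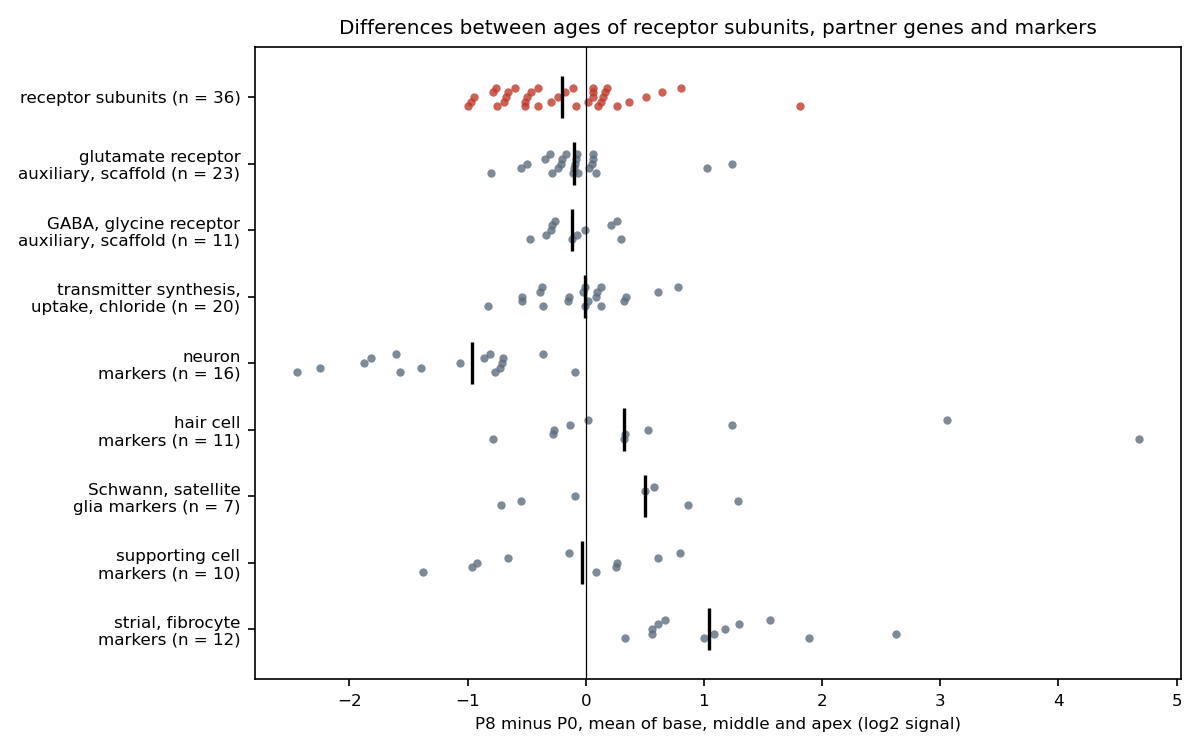
P8 minus P0 difference in log2 signal (x axis, 1 point per tested gene, black bars at the median) for the receptor subunits and for lists of partner genes and cell type markers (y axis, n tested genes in brackets). The 16 neuron markers all lie left of 0 with a median of -0.96, the 12 strial and fibrocyte markers all lie right of it with a median of 1.05, and the receptor subunits lie on both sides with a median of -0.20.

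The second comparison asked whether subunit genes differed between apex and base, which respond to low and to high frequencies. Of the subunit genes, Grin2a was lower in the apex than in the base at both ages. Gabra5 was lower and Gabra3 higher in the apex at P0, and Gria4 was higher in the apex at P8. For Gabra5 the P0 apex mean lay under the level of 6, so its call is only described. These calls were made with the pool as a block, which compares apex and base of the same cochleae, at an adjusted p under 0.05 and a fold of at least 1.5. In the fit without a block, no member passed, beside 0.00613% of all genes at P0 and 0.196% at P8. In that fit 6 and 5 members had an unadjusted p under 0.05, with no share of all genes taken at that cut. With the dissection set as the block, no member passed either, beside 0.675% and 1.58% of all genes. With the pool as the block, 1 member was higher and 2 were lower in the apex at P0, beside 0.73% and 0.687% of all genes, and 1 was higher and 1 lower at P8, beside 1.55% and 1.26%.

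Grin2a read 6.82 and 7.17 in the P0 base in log2 signal of the first and the second set, 6.31 and 6.65 in the middle, and 6.19 and 6.23 in the apex. At P8 it read 6.64 and 6.35 in the base, 6.11 and 6.12 in the middle, and 5.95 and 5.79 in the apex. Signal declined in steps from base to apex in all 4 pools. The apex minus base difference was -0.79 ± 0.12 at P0 (SE and p with the pool as the block, adjusted p = 0.00337) and -0.62 ± 0.12 at P8 (adjusted p = 0.00836), where the apex mean lay under the level of 6. The limma fit without a block gave adjusted p of 0.487 and 0.514, and the set as block gave 0.0650 and 0.102. At P0 the pool test missed the threshold without the P0 base array of the second set (adjusted p = 0.0511). At P8 it missed it without the P8 base array of the first set or either P8 apex array (up to 0.144). The change of the difference from P0 to P8 was 0.16 ± 0.17 with the pool as the block and did not pass (adjusted p = 0.687).

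Gabra5 encodes an alpha subunit of GABA-A receptors known from sites outside synapses. At P0 it read 6.77 and 6.38 in the base, 6.37 and 5.92 in the middle, and 5.94 and 5.73 in the apex. The apex was the lowest region in both sets, and the difference from the base was -0.74 ± 0.12 with the pool as the block (adjusted p = 0.00423, 0.0621 with the set as block, and 0.726 without a block). The P0 apex mean of 5.84 lay under the level of 6. Gabra5 passed the filter on low signal only through its P0 base and P0 middle groups, so this difference is a description. At P8 its values were 5.62 and 5.64 in the base, 5.54 and 5.68 in the middle, and 5.92 and 5.73 in the apex, all under the level of 6. The P0 call was lost without the first-set P0 base or P0 apex array (adjusted p up to 0.0759).

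Gabra3 showed the opposite order at P0, with 6.85 and 6.49 in the base, 6.82 and 7.03 in the middle, and 7.20 and 7.40 in the apex in log2 signal. The apex exceeded the base by 0.63 ± 0.14 with the pool as the block (adjusted p = 0.0373, 0.198 with the set as block, and 0.9999 without a block), by 0.35 in the first set and 0.91 in the second. The call was lost in 5 of 12 fits that left out 1 array, namely those without either P0 apex array, either P8 middle array or the second-set P0 base array, with adjusted p up to 0.188. At P8 it read 6.30 and 6.70 in the base, 5.76 and 6.23 in the middle, and 6.08 and 6.24 in the apex, and the difference of -0.34 ± 0.14 did not pass (adjusted p = 0.219).

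The third comparison asked whether the apex minus base difference itself changed from P0 to P8. It changed by 0.94 ± 0.16 for Gabra5 and by -0.97 ± 0.20 for Gabra3 with the pool as the block (adjusted p = 0.0148 and 0.0412), the only members to pass, beside 0.589% of all genes higher and 0.337% lower. No member passed with the set as block (0.178% of all genes) or without a block (0% of all genes). Without a block, 2 members had an unadjusted p under 0.05 by limma, with no share of all genes taken at that cut. For Gabra5 the P8 values and the P0 apex lay under the level of 6, so the size of its change is not read. The Gabra5 call was lost without any of the first-set base or apex arrays of either age or the second-set P0 base array (adjusted p up to 0.118). The Gabra3 call held in 4 of 12 such fits, and was lost without either P8 base, P0 apex or P8 middle array, the second-set P0 base array or the second-set P8 apex array (adjusted p up to 0.162).

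**Figure D5:**
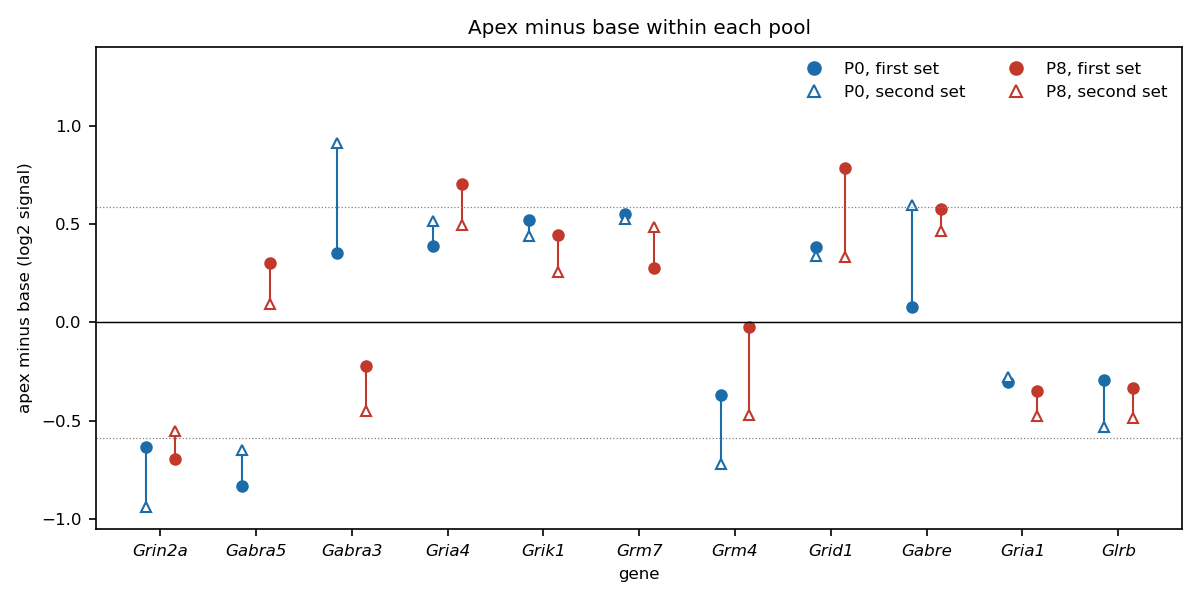
Apex minus base in log2 signal (y axis) within each pool for 11 subunit genes (x axis), with P0 in blue, P8 in red, circles for the first and triangles for the second dissection set, and dotted lines at a fold of 1.5. Grin2a lies below 0 at both ages, and at P0 Gabra5 lies below 0 and Gabra3 above it; neither passed at P8 (adjusted p = 0.394 and 0.219), where all Gabra5 values are under the level of 6 and are not read.

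Gria4 read 7.69 and 7.24 in the P8 base, 8.58 and 7.69 in the middle, and 8.39 and 7.73 in the apex in log2 signal. The apex exceeded the base by 0.71 in the first set and 0.49 in the second, and the mean of 0.60 ± 0.12 passed with the pool as the block (adjusted p = 0.0113, 0.118 with the set as block, and 0.9999 without a block). The call was lost without the first-set P8 base array or either P8 apex array (adjusted p up to 0.207). At P0 the difference was 0.45 ± 0.12 and did not pass (adjusted p = 0.0782). Its change from P0 to P8 was 0.15 ± 0.17 (adjusted p = 0.724).

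Some members had an adjusted p under 0.05 with the pool as the block but a fold under 1.5. At P0 these were Grm7 (0.54 ± 0.11 higher in the apex), Grik1 (0.48 ± 0.10 higher) and Grm4 (a difference of -0.54 ± 0.13), and at P8 Grid1 (0.56 ± 0.13 higher), Gabre (0.52 ± 0.12 higher) and Gria1 (a difference of -0.41 ± 0.11). Glrb had an apex minus base difference of -0.41 ± 0.11 at each age and did not pass (adjusted p = 0.0808 at P0 and 0.0511 at P8). Gabrb2 had differences of -0.06 ± 0.12 and -0.14 ± 0.12 (adjusted p = 0.841 and 0.598).

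Neto2 was the one partner gene past the thresholds between regions. With the pool as the block it was lower in the apex at P8 by a log2 difference of -0.78 and its difference changed by -0.96 from P0 (adjusted p = 0.00232 and 0.0192). Other partner genes had an adjusted p under 0.05 in that fit at P8 but a fold under 1.5. These included Gad1 (0.51), Kctd16 (0.49) and Dlg2 (0.49), higher in the apex, and Slc1a1 (-0.41). The marker calls that follow are also with the pool as the block and a fold of at least 1.5. In that fit 0.73% of all genes were higher and 0.687% lower in the apex at P0, and 1.55% and 1.26% at P8. Without a block, only Jag1 at P8 passed among the partner genes and markers (adjusted p = 0.0198). Among the markers at P8, Syt1 and Uchl1 of neurons were higher in the apex by 1.54 and 1.19, and 15 of 16 neuron markers were on that side. All 11 hair cell markers were higher in the apex at P8, and Slc26a5, Ocm, Pou4f3 and Otof passed at differences of 1.24, 0.98, 0.70 and 0.61. The mean of the hair cell list per array was 8.11 and 8.15 in the P8 base and 8.55 and 8.78 in the P8 apex. At P0 no neuron or hair cell marker passed. Of 10 supporting cell markers, 8 had higher signal in the apex at P0 and 9 at P8. Those that passed were 3 at P0 (Tectb by 1.14, Prox1 by 0.69 and Jag1 by 0.65) and 4 at P8 (Sox2 by 1.36, Jag1 by 1.21, Tectb by 1.15 and Prox1 by 1.12). Gjb2 went the other way at both ages (-0.40 and -0.25) and Slc1a3 at P0 (-0.04), and neither passed. Of the 12 strial and fibrocyte markers, 11 had lower signal in the apex at P0, where Kcne1 passed at a difference of -0.68, and 10 at P8, where Otos and Esrrb passed at -0.94 and -0.69. The glia marker Erbb3 was higher in the apex at P8 by 0.80. Of the 7 tested glia markers, 6 were on that side at P8, and Fabp7 had a difference of -0.72 that did not pass. The first-set P0 apex array also had the highest mean of the skeletal muscle list, 7.73, where the other arrays read 6.66 to 7.05. The part of these markers in the regional differences of Gria4, Grin2a, Gabra3 and Gabra5 was not tested.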

How the data were processed

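Each of the 12 RNAs, from the 3 regions of 4 pools, was hybridized to 1 array. The authors derived signals with RMA (robust multiarray averaging), version not given in the sources used here, and deposited them as log2 values; whether both dissection sets went through 1 run is not stated. A fold here is 2 raised to a log2 difference. Of 35556 entries, 21789 carried 1 gene symbol, and a gene was represented by the entry with the highest mean over the arrays. Some subunit genes are not reported here. Signals of different genes come from different probes and were not set against each other. The number of arrays limits the precision, and the median SD between the arrays of a group was 0.152 for the tested members.

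Differences were tested with limma 3.58.1 (lmFit and eBayes) in R 4.3.3, in 1 fit of 6 group means over 12 arrays, without a block as the study's methods name an unpaired test, with Benjamini-Hochberg adjustment over 16306 genes. Calls needed an adjusted p under 0.05 and a fold of at least 2 between ages or 1.5 between regions, and no fold for the change of the apex-base difference. The dissection set, the pool (a block for regions, a random block for ages) and the other alternatives are given at the end. Calls between ages with no fold threshold, and the pool fits with 1 array left out, were added after seeing the data. Arrays of the same set deviated together from the group means (correlation 0.544 to 0.916 for the 15 pairs of groups), and the pool pairs base and apex because they are pieces of the same cochleae. The fits without a block and with the set as block were tested on simulated data, for the difference between ages. The simulated noise was independent between arrays and held no deviation shared by a pool. The fits with the pool as a block or a random block were not simulated. Figures were drawn with Python 3.11.15 and matplotlib 3.10.9, and promoter sequences come from RefSeq. Subunit genes, partner lists and markers were chosen with earlier results of these data known. Named were the members past a test, those with the greatest differences, members named in the study's tables and, from the lists, genes past a test and the 2 greatest differences each way.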

Additional observations from a re-analysis of the deposited data

Results flagged for a closer look

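The apex minus base difference changed from P0 to P8 by -0.9678 in log2 signal for Gabra3 and by 0.9378 for Gabra5, in opposite directions, and both passed the test of the change itself with the pool as the block (adjusted p = 0.0412 and 0.0148). Neither passed with the dissection set as the block (0.263 and 0.188) or without a block (both 1). In both sets the change had the same sign, -0.57 and -1.36 for Gabra3 and 1.13 and 0.74 for Gabra5. The Gabra5 signal lay under the level of 6 in the P0 apex and, at P8, in every region, so its change is only described.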

How the results depend on the processing

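Between ages, at a fold of 2, the count of members called lower was 0 and became 1 (Gabrb2) with the mean of all entries of a gene, and it lay between 0 and 3 (Gabrb2, Grik2 or Grik4) when 1 array was left out. With no fold threshold, the 15 members called lower became 4 with the pool as a random block, 9 of 21 tested with the level raised to 7 (10.1% of all genes), and 9 to 12 with 1 array left out (6.14% to 8.88% of all genes), the fewest without the P8 base array of the second set. The dissection set as a replicate block gave 17 lower and 6 higher, beside 21.8% and 19.5% of all genes, and added Gria3 and Gabre to the lower and Gabrg3 and Grm4 to the higher members. For apex over base, with 0 members called in the fit without a block, the pool as block gave 1 higher and 2 lower at P0, 1 and 1 at P8, and 1 and 1 for the change, whereas the dissection set as replicate block gave 0 for each. The methods' t-test called 1 member lower at P0 on unadjusted p (71 of 16306 genes, 0.435%, in either direction) and 0 after Benjamini-Hochberg. Signs turned only with 1 array left out and in differences that did not pass. Gabrb2 then ranged from -0.2365 to 0.1174 in apex over base at P0, and the change of the difference ranged from -0.2586 to 0.0953 for Gabrb2, from -0.312 to 0.3157 for Glrb, from -0.163 to 0.9653 for Gabrg3 and from -0.0111 to 0.3348 for Grin2a. The 2 pools per age and signals near the level of 6 limit what can be told, and Gabra2, Gabra5, Gria2 and Grik2 had P8 means under that level.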
